A study of Mus musculus with 20 samples.

Results

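The transcripts uc009dsm.2, uc008qlo.2 and uc007ztn.2 were supplied as a list of 3 identifiers, chosen from their capture ratios in these Ribo-Seq libraries: each had more footprints on ribosomes captured through a FLAG tag than on all ribosomes of the same cells, and a smaller excess or none on ribosomes captured through RPL22. They are 3 of the 7605 transcripts listed for all the tagged lines, and 2 of them, uc009dsm.2 and uc008qlo.2, are also among the 8084 transcripts of the RNA-seq tables. Because the ratios chose them, the ratios are described here without a test, and tests are kept to the RNA-seq libraries. The identifiers are UCSC transcript names, and 0 of the 9498 in the files could be paired with a gene symbol in the reference tables used here. What the 3 transcripts encode, their sequences and the markers of the cells are therefore not given.

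All 20 libraries came from E14 mouse embryonic stem cells, a pluripotent line, given 100 µg/ml cycloheximide for 1 min before harvest. Ribosome profiling (Ribo-Seq) sequences the mRNA fragments that ribosomes shield from RNase, and its 12 libraries came from 3 lines with 1 tagged allele at the gene's own locus. The lines were 3xFLAG-Rpl10a, Rps25-3xFLAG and Rpl22-3xHA, each with 2 libraries of total ribosomes pelleted through sucrose and 2 of ribosomes captured by immunoprecipitation. Capture used anti-FLAG beads for 2 h in the first and second lines, and an anti-HA antibody for 4 h followed by protein A beads for 1 h in the third. The lysis buffer described for the third line lists no heparin, and its 2 total libraries carry the anti-HA antibody in a label field, although their titles call them total. In the RNA-seq arm, wild-type cells received control siRNA or Rpl10a siRNA, and polysome gradients were pooled into a heavy pool (at least 4 ribosomes per mRNA) and a light pool (all other fractions, up to polysomes of 2 to 3 ribosomes), with 2 libraries for each pool and siRNA. The tagged lines keep 1 untagged allele, so a capture takes in only ribosomes with the tagged copy. The sources used here do not state whether a line is 1 clone.

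As background, RPL10A sits on the mobile L1 stalk of the large ribosomal subunit, near the site where spent tRNA leaves. RPS25 is a small-subunit protein known for its part in initiation at several viral internal ribosome entry sites. RPL22 is a large-subunit protein that has a close paralog. A capture ratio above 0 on the log2 scale means that a transcript takes a larger share of the footprints on tagged ribosomes than on the total pool, and polysome position reports how many ribosomes an mRNA carries.

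Deposited Ribo-Seq values are RPKM, footprints scaled by transcript length and library size, and each library summed to between 1082511 and 1201737 RPKM. RNA-seq values are named RPM, without a length term, and summed to between 943664 and 1067209. Replicates of a group correlated at 0.973 to 0.995 across transcripts on log2 values. Read depth is unknown. Since no label describes replicates as coming from different cultures, errors and p-values reflect the spread among these libraries alone, and part of it may be technical.

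uc009dsm.2 was the most abundant of the 3. In the Rpl10a line it stood at 24.5 and 33.2 RPKM in total libraries and at 116.7 and 128.6 RPKM in captures. In the Rps25 line the total libraries held 41.5 and 37.2 RPKM and the captures 126.9 and 103.8 RPKM. In the Rpl22 line the total libraries held 712.1 and 654.3 RPKM and the captures 916.6 and 778.8 RPKM. Captures thus lay above totals with no overlap in every line, and the whole Rpl22 line lay above both FLAG lines. In a bulk lysate, fewer cells with a transcript and less of it per cell cannot be told apart.

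The capture of uc009dsm.2 averaged 4.25 times its total in the Rpl10a line, 2.93 times in the Rps25 line and 1.24 times in the Rpl22 line. On log2(RPKM + 1) the ratios were 2.06 (SE 0.19), 1.52 (SE 0.14) and 0.31 (SE 0.10), with n = 2 libraries in each group. It ranked 10th from the top among 8505 transcripts for RPL10A, 10th among 8779 for RPS25, and 564th among 8588 for RPL22, where 6.56% of transcripts had a higher ratio. Its RPL22 ratio was therefore small in size but still toward the upper end of that line's narrower range (SD across transcripts 0.22, against 0.46 and 0.37).

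uc008qlo.2 was a low-level transcript. In the Rpl10a line it had 4.4 and 4.9 RPKM in total libraries and 13 and 21.1 RPKM in captures. In the Rps25 line it had 6.5 and 5.4 RPKM in total libraries and 12.6 and 21.3 RPKM in captures. In the Rpl22 line it had 10.3 and 8.2 RPKM in total libraries and 7.4 and 8.3 RPKM in captures. Captures exceeded totals without overlap in both FLAG lines, whereas capture and total libraries overlapped in the Rpl22 line.

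The mean capture of uc008qlo.2 was 3.67 times its total for RPL10A, 2.85 times for RPS25 and 0.849 times for RPL22. The log2 ratios were 1.64 (SE 0.28), 1.33 (SE 0.28) and −0.21 (SE 0.16). It ranked 32nd of 8505, 21st of 8779 and 6892nd of 8588, so it was the only one of the 3 with an RPL22 ratio below 0. The second capture library of each FLAG line was higher than the first, and pairing each capture with each total gave ratios from 2.65 to 4.80 for RPL10A and from 1.94 to 3.94 for RPS25.

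uc007ztn.2 was, like uc008qlo.2, a low-level transcript. It held 3.3 and 4 RPKM in total and 11.3 and 18.8 RPKM in capture libraries of the Rpl10a line. It held 5.8 and 6.3 RPKM in total and 13.5 and 16.7 RPKM in capture libraries of the Rps25 line. In the Rpl22 line it held 4.4 and 5.3 RPKM in total and 5.4 and 5.2 RPKM in capture libraries. Again the FLAG captures stood clear of their totals and the RPL22 capture overlapped its total. Its highest value in the Rpl22 line, 5.4 RPKM, is close to the lowest peak value of any transcript in that table, 5 RPKM. In the Rpl10a table each transcript reaches at least 5.1 RPKM in some library. There the totals of uc007ztn.2 and uc008qlo.2 all lay below that value and only their captures reached it, so transcripts this low in both total and captured ribosomes are not among the 8505 they were ranked with.

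The capture of uc007ztn.2 was 4.12 times its total for RPL10A, 2.50 times for RPS25 and 1.09 times for RPL22. The log2 ratios were 1.75 (SE 0.30), 1.19 (SE 0.21) and 0.11 (SE 0.17), which ranked 26th of 8505, 37th of 8779 and 2219th of 8588. Over all transcripts the medians of the log2 ratio were 0.00 for RPL10A, 0.01 for RPS25 and −0.03 for RPL22, and the middle values of the 3 transcripts were 1.75, 1.33 and 0.11.

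**Figure D1:**
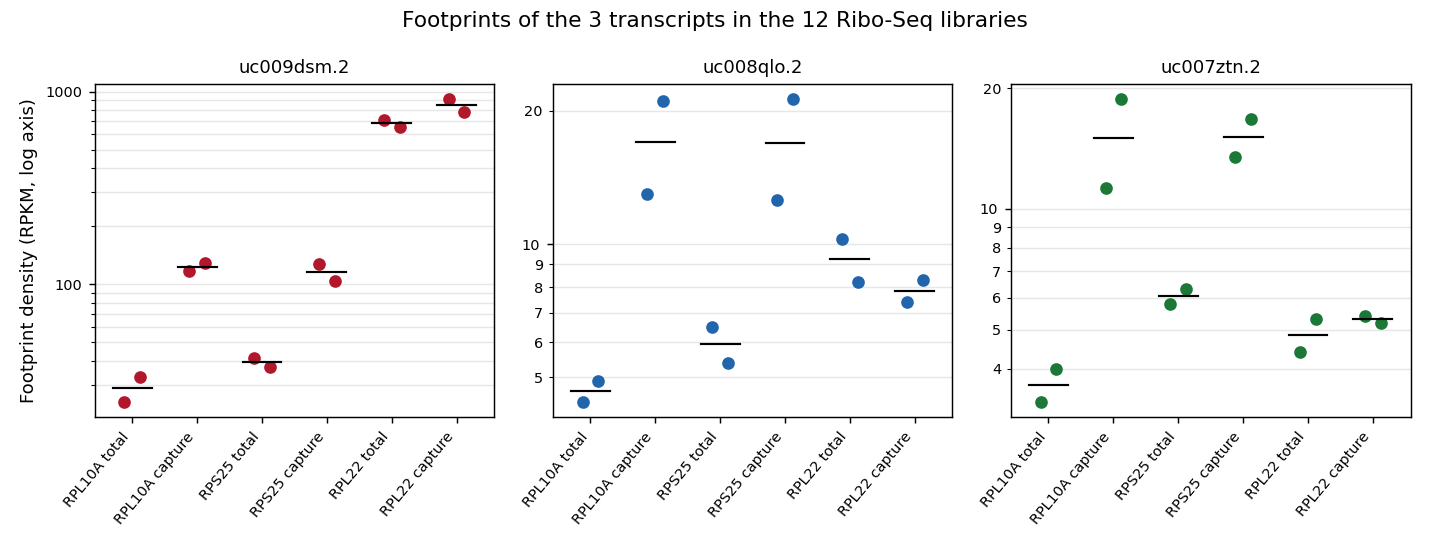
Footprint density of each transcript in the 12 Ribo-Seq libraries (RPKM on a log axis), with 1 point per library and a black line at the mean of the 2 libraries of a group. Captures of the FLAG lines lie above their totals for all 3 transcripts. uc009dsm.2 reaches 654.3 to 916.6 RPKM in the Rpl22 line.

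In all, 3 of 3 transcripts had captures above totals without overlap for RPL10A, 3 of 3 for RPS25 and 1 of 3 for RPL22. Over all transcripts the share with captures above totals without overlap was 28% for RPL10A, 27.9% for RPS25 and 21.5% for RPL22. These contrasts chose the transcripts, and the counts only describe them.

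**Figure D2:**
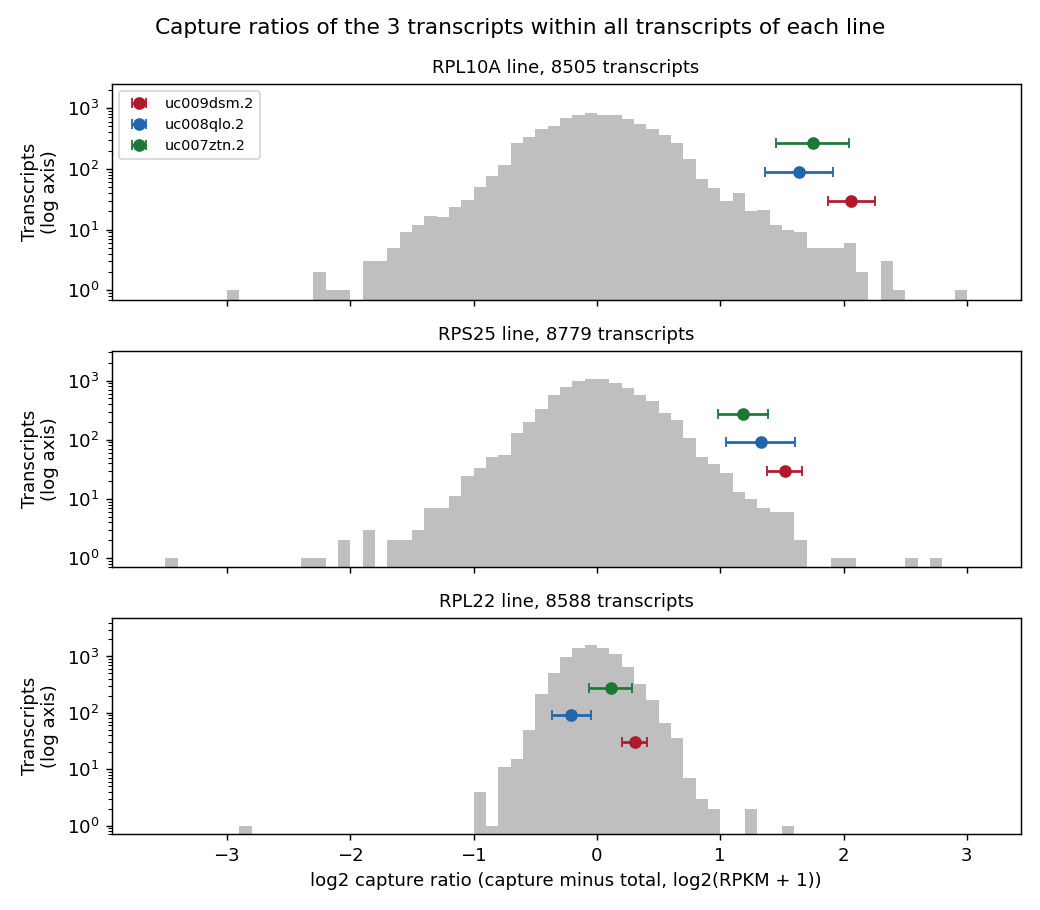
Distribution of log2 capture ratios over all transcripts of each line (grey; number of transcripts on a log axis), with the 3 transcripts as coloured points with 1 SE (n = 2 libraries per group). The height of the points carries no value. The points lie in the upper tail for RPL10A (1.64 to 2.06) and RPS25 (1.19 to 1.52). For RPL22 they run from −0.21 to 0.31, and 6.56% of transcripts lie above the highest, uc009dsm.2.

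Set against each other in a fit of the 12 libraries, the RPL10A ratio exceeded the RPL22 ratio by 1.76 (SE 0.22) for uc009dsm.2, by 1.85 (SE 0.37) for uc008qlo.2 and by 1.64 (SE 0.33) for uc007ztn.2, on the log2 scale. The RPS25 ratio exceeded the RPL22 ratio by 1.22, 1.54 and 1.07 with the same SEs. Both differences use the same RPL22 libraries. When the 7605 transcripts are ordered by the smaller of their 2 differences, uc008qlo.2 is 2nd, uc009dsm.2 7th and uc007ztn.2 16th. Transcripts as low as the Rpl10a totals of uc008qlo.2 and uc007ztn.2 in both totals and captures of that line are not among the 7605. Leaving out any 1 of the 12 libraries, these 6 differences ran between 0.93 and 2.18. The transcripts were chosen on these differences, so the range describes them and does not test them.

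Splitting each difference into its total and capture parts separated uc009dsm.2 from the other two. Its total footprints were 23.1-fold higher in the Rpl22 line than in the Rpl10a line, and 17.0-fold higher than in the Rps25 line (log2 differences of −4.53 and −4.08, FLAG minus Rpl22, SE 0.15 each). Its captured footprints were likewise 6.85-fold and 7.31-fold higher in the Rpl22 line (−2.78 and −2.87). In absolute density uc009dsm.2 was thus lower in the FLAG captures than in the RPL22 capture, and only its ratios to total were higher. Both total-level gaps ranked 2nd of 7605 in size toward the Rpl22 line. Only 2 transcripts were at least 16-fold higher in total libraries of the Rpl22 line than in those of both FLAG lines, 6 were at least 8-fold higher and 22 at least 4-fold higher.

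For uc008qlo.2 both parts contributed. FLAG captures held more of it than the RPL22 capture (log2 differences of 0.99 for RPL10A and 0.98 for RPS25, SE 0.26 each), and the totals of the FLAG lines held less (−0.85 and −0.56). Its RPL22 totals overlapped the RPL22 captures and lay above both FLAG totals.

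For uc007ztn.2 the capture part carried the difference. FLAG captures exceeded the RPL22 capture by 1.31 (RPL10A) and 1.35 (RPS25), SE 0.23 each. Totals differed less, by −0.33 and 0.27, and in opposite directions. No overlap occurred between FLAG and RPL22 captures for any of the 3 transcripts. The share of all transcripts without such overlap was not counted, and these captures enter the ratios that chose the 3.

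**Figure D3:**
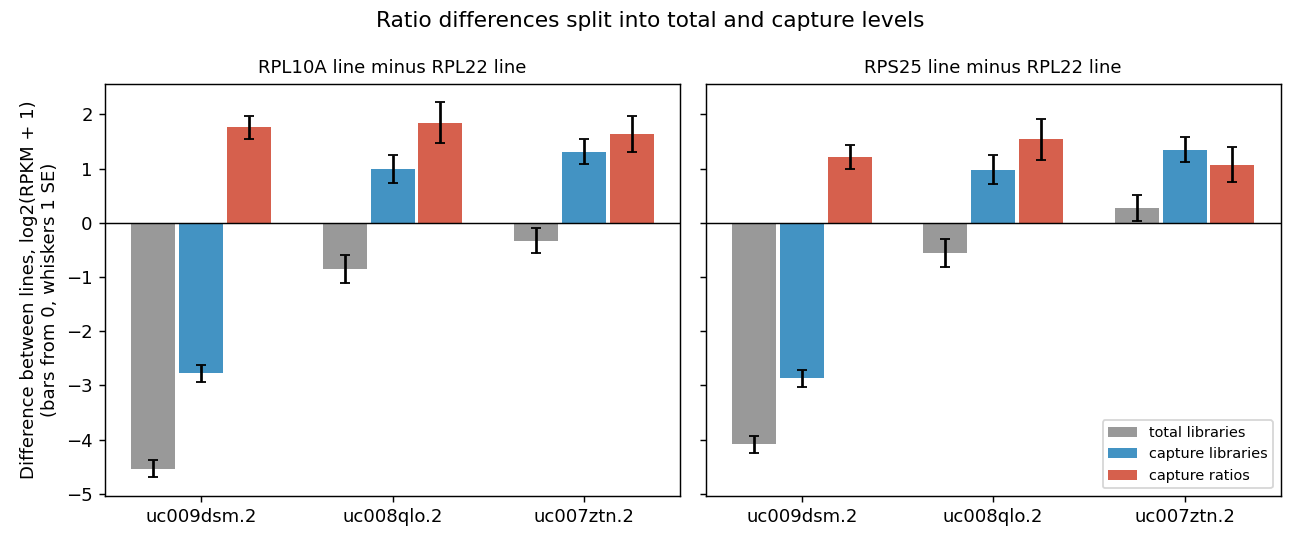
Differences between each FLAG line and the Rpl22 line for the 3 transcripts, on log2(RPKM + 1): total libraries (grey), capture libraries (blue) and capture ratios (red, which equals blue minus grey), with bars from 0 and whiskers of 1 SE (n = 2 libraries per group). For uc009dsm.2 the total and capture bars are both far below 0, at −4.53 and −2.78 for the Rpl10a line minus the Rpl22 line, while its ratio bar is at 1.76. For uc007ztn.2 the capture bar is the larger part.

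The FLAG captures resembled each other in level. RPL10A and RPS25 capture libraries overlapped for all 3 transcripts, with log2 differences of 0.09 (SE 0.15) for uc009dsm.2, 0.01 (SE 0.26) for uc008qlo.2 and −0.04 (SE 0.23) for uc007ztn.2. The totals did not overlap and were lower in the Rpl10a line each time, by −0.45, −0.30 and −0.60. Over all 7605 transcripts the median of this total difference was 0.02 (SD 0.27). Shares of all transcripts with or without overlap were not counted here, and these libraries enter the ratios that chose the 3. The larger RPL10A ratios (RPL10A minus RPS25 of 0.54, 0.31 and 0.57) thus went with lower totals and not with higher captures. The smallest of these, 0.31 for uc008qlo.2, turned to −0.047 without the first RPS25 capture library and to −0.019 without the second RPL10A capture library, and rose to 0.67 and 0.64 without the other capture library of those lines. The other two ran from 0.33 to 0.75 (uc009dsm.2) and from 0.22 to 0.91 (uc007ztn.2) without single libraries.

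The tagged protein, the antibody, the capture time, the buffer and the listed tools all changed between the FLAG lines and the Rpl22 line: the submitters' processing notes name STAR for the Rpl22 libraries and not for the others. The tables of the lines were also normalized separately. These factors cannot be told apart from the tag in any difference between lines given here, the level gap of uc009dsm.2 included.

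Ordered by footprint density, uc009dsm.2 ran from the Rpl10a total through the Rps25 total, the overlapping FLAG captures and the Rpl22 total up to the Rpl22 capture. uc008qlo.2 ran from the Rpl10a total through the Rps25 total and the overlapping Rpl22 capture and total up to the overlapping FLAG captures. uc007ztn.2 ran from the Rpl10a total through the overlapping Rpl22 total and capture and the Rps25 total up to the overlapping FLAG captures. The lowest group was thus the Rpl10a total in each case, and the highest differed. Relative to the other transcripts of a library, uc009dsm.2 lay above 50.5% and 58.5% of them in the Rpl10a totals and above 96.5% and 96.3% in the Rpl22 totals, whereas uc007ztn.2 lay above 1.85% and 2.54% in the former and 1.32% and 3.06% in the latter.

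The transcripts most like the 3 were sought among 3803 others at or above the median level of 28.9 RPKM, by the distance between their 6 values (each capture library minus the mean of its line's totals, log2) and the average of the 3. The nearest were uc009qsi.1, at a distance of 0.848, and uc007hnk.2, at 0.995, while the 3 themselves lay at 0.29 to 0.72 from their average. The 3 make up that average and were chosen on these ratios, so their smaller distances are no test. With mean levels of 10.3 and 8.33 RPKM, uc008qlo.2 and uc007ztn.2 lie below the median level, and other transcripts that low were not searched. uc009qsi.1 had log2 capture ratios of 1.54 (RPL10A), 0.98 (RPS25) and −0.05 (RPL22). uc007hnk.2 had ratios of 2.13, 1.04 and 0.40. Like uc009dsm.2, uc007hnk.2 was far higher in the Rpl22 line, with totals of 15356.1 and 15950.8 RPKM there against 429.5 to 1970 RPKM in the FLAG lines.

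The RNA-seq libraries, which the choice of transcripts did not use, gave the position of 2 of them in polysomes. Without gene names the depletion of Rpl10a itself was not checked. With control siRNA, uc009dsm.2 had 137.6 and 139.4 RPM in light pools and 353.3 and 428.7 RPM in heavy pools. It was 2.80-fold higher in heavy than in light pools on log2(RPM + 1) (log2 difference 1.48, SE 0.12, limma adjusted p = 3.46e-05, n = 2 per group). That difference exceeded those of 96.9% of the 8084 transcripts.

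uc008qlo.2 leaned the other way. With control siRNA it had 24.5 and 12.9 RPM in light pools and 6.4 and 5.6 RPM in heavy pools, a log2 difference of −1.43 (SE 0.36, limma adjusted p = 0.00952, n = 2 per group). Only 4.26% of transcripts were lower. Its adjusted p rose to 0.0778 without the first control light library and to 0.0513 without the second control heavy library. Both transcripts passed the test, in opposite directions, and 54.4% of all transcripts passed it (28% higher and 26.4% lower in heavy pools), so a call here is common. Heavy and light libraries did not overlap for either transcript, as for 80.4% of all.

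With Rpl10a siRNA, uc009dsm.2 had 124.8 and 119.8 RPM in light pools and 181.3 and 200.9 RPM in heavy pools, and remained higher in heavy pools (log2 difference 0.64, SE 0.12, limma adjusted p = 0.00333). uc008qlo.2 had 13.2 and 6.3 RPM in light pools and 3.4 and 2.8 RPM in heavy pools, and remained lower in heavy pools (−1.32, SE 0.36, limma adjusted p = 0.0148). Its adjusted p was 0.0970 without the first Rpl10a light library and 0.0555 without the second Rpl10a heavy library. Of all transcripts, 53.7% passed this test (31.6% higher and 22.1% lower in heavy pools). Again heavy and light libraries overlapped for neither transcript, and 74.3% of all had no overlap.

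**Figure D4:**
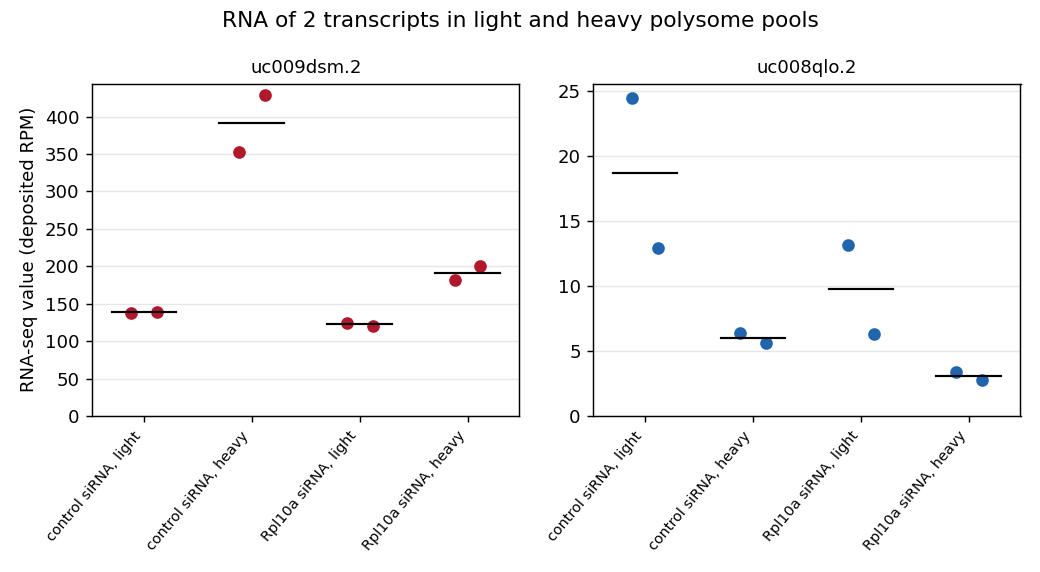
RNA-seq values (deposited RPM, axes from 0) of uc009dsm.2 and uc008qlo.2 in light and heavy pools with either siRNA, with 1 point per library and a black line at the mean of 2. uc009dsm.2 is highest in the control heavy pools (353.3 and 428.7 RPM), and uc008qlo.2 is highest in the control light pools (24.5 and 12.9 RPM).

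uc009dsm.2 was lower in the heavy pools with Rpl10a siRNA than with control siRNA. The heavy value fell from 391 ± 53.3 to 191 ± 13.9 RPM (SD, n = 2 each), without overlap, by 1.02 on the log2 scale (SE 0.12, limma adjusted p = 0.00212). This was the 15th lowest change of 8084 transcripts. Of the 2 transcripts 1 was called, and 49.5% of all transcripts were called, with 22.7% called as lower. Both transcripts had no overlap between the siRNAs in heavy pools, as had 74.1% of all. Scaling to aligned medians, which moved the median change of all transcripts by −0.13, gave −1.16 for uc009dsm.2, and scaling to library totals, which moved it by 0.11, gave −0.91.

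In light pools uc009dsm.2 went from 138 ± 1.27 to 122 ± 3.54 RPM (SD, n = 2 each), a log2 change of −0.18 that did not pass the test (limma adjusted p = 0.409, 95% interval −0.46 to 0.11). Its libraries did not overlap there either, as was the case for 61.5% of all transcripts.

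uc008qlo.2 had lower values with Rpl10a siRNA in both pools, and neither change was called in the fit of 8 libraries without a replicate block. With a block for replicate number both were called, as were 5248 (heavy) and 1912 (light) of all 8084 transcripts. The labels link replicate numbers to no culture or day. The heavy value was 6 ± 0.566 RPM with control and 3.1 ± 0.424 RPM with Rpl10a siRNA (log2 change −0.77, SE 0.36, limma adjusted p = 0.103, 95% interval −1.60 to 0.05). The fit of the 4 heavy libraries alone called it (limma adjusted p = 0.0400). In heavy pools the fit of 8 libraries called 49.5% of all transcripts. The light value was 18.7 ± 8.20 and 9.75 ± 4.88 RPM (−0.89, SE 0.36, limma adjusted p = 0.167, 95% interval −1.71 to −0.06). This light value was −0.45 without the first and −1.32 without the second control light library, and −1.37 without the first and −0.41 without the second Rpl10a light library, with no call in any of these fits. Light libraries of the siRNAs overlapped, and in both of them the first library was higher than the second. In light pools the fit without the block called 0 of the 2 transcripts and 6.12% of all transcripts. An unadjusted limma p below 0.05 was found for 1 of the 2, and for 2087 of all 8084 transcripts.

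The polysome shift, the change in heavy pools minus the change in light pools, was −0.85 for uc009dsm.2 (SE 0.18, limma adjusted p = 0.0377). A lower shift was found for 3.34% of transcripts. In RPM, uc009dsm.2 fell more in heavy than in light pools and rose in neither. The shift uses the same libraries as the changes above. It passed the test without the second Rpl10a heavy library (adjusted p = 0.0172) and missed it without any 1 of the other 7 libraries (adjusted p from 0.0776 to 0.172) and without a variance trend (adjusted p = 0.0556), with the shift between −0.98 and −0.71 throughout. For uc008qlo.2 the shift was 0.11 (SE 0.51, limma adjusted p = 0.900, 95% interval −1.05 to 1.28), in this fit a range wide enough to hold the value of uc009dsm.2. That interval makes no use of replicate numbers, and the first library of uc008qlo.2 was higher than the second in each pool with either siRNA. Across transcripts, deviations of same-numbered RNA-seq libraries correlated at 0.403 to 0.622. The width of the interval therefore does not show that the 2 transcripts shifted alike. Of the 2 transcripts 1 was called, and 6.43% of all transcripts were, with 3.57% called with a shift below 0. Those 7 fits with a library left out called 0 transcripts in all, with at least 1589 at an unadjusted limma p below 0.05.

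**Figure D5:**
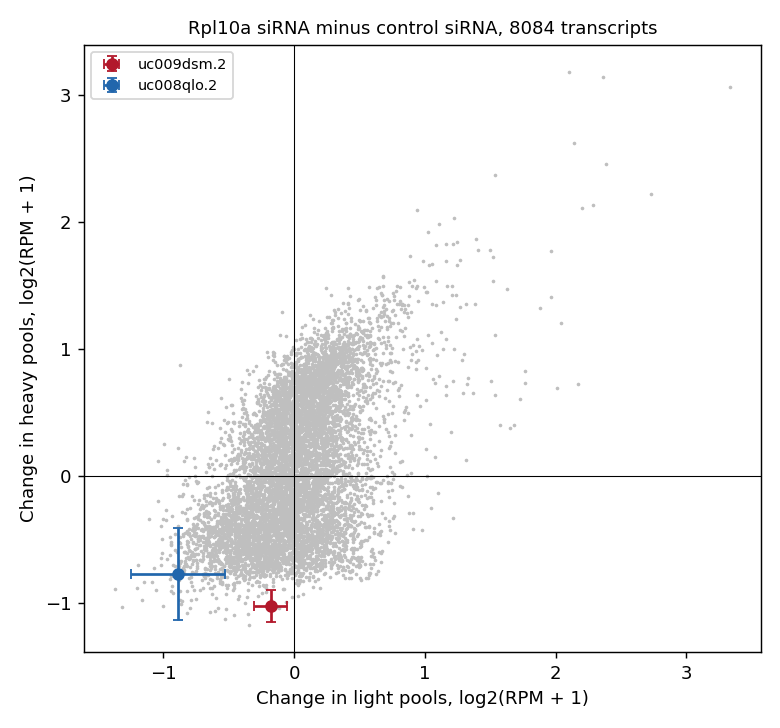
Change with Rpl10a siRNA relative to control siRNA, on log2(RPM + 1), in light pools (x axis) and heavy pools (y axis) for 8084 transcripts (grey), with uc009dsm.2 and uc008qlo.2 in colour and whiskers of 1 SE (n = 2 libraries per group). uc009dsm.2 lies at −0.18 and −1.02, at the lower edge of the cloud. uc008qlo.2 lies at −0.89 and −0.77, with wide error.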

How the data were processed

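The 3 transcripts, the comparisons and the lists were chosen with earlier results of these data known. The authors deposited RPKM values per transcript for each Ribo-Seq library and values headed RPM for each RNA-seq library, per the file headers. The RPM columns do not share 1 sum, and are taken here as a scaled signal, deposited with a factor per library that no source used here explains. All libraries list cutadapt, Bowtie2 and mm10 in the submitters' processing notes, which add STAR for RNA-seq and the Rpl22 line and give no versions. Values have 1 decimal, whole reads were not recovered and no count test was run.

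All transcripts of a table entered the fits as log2(value + 1), made in R 4.3.3 by limma 3.58.1 (moderated variances with a trend, two-sided), with no filter. A fold on this scale understates changes of low transcripts. Capture ratios came from 1 fit of the 4 libraries of a line (2 residual degrees of freedom), differences between lines from 1 fit of 12 libraries (6) and RNA-seq contrasts from 1 fit of 8 (4). Calls needed p below 0.05 after Benjamini-Hochberg adjustment over the whole table. Named transcripts were the 3 and the 2 nearest to their average ratio profile at or above the median level. Fits were run on simulated data with independent noise in each library. Deviations of same-numbered RNA-seq libraries correlated, so the simulation differs from these data in that respect. The alternatives were pseudocounts of 0.1 and 5, aligned medians, library totals, a mean of at least 10, no trend, a replicate block, smaller or larger fits, and leaving out each library.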

Additional observations from a re-analysis of the deposited data

Results flagged for a closer look

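The change of uc009dsm.2 with Rpl10a siRNA differed between heavy and light pools in the main fit, with a polysome shift of −0.85 (limma adjusted p = 0.0377, n = 2 libraries per group). Of all transcripts, 6.43% were called there. Most fits with 1 library left out lost this call, as did the fit without a variance trend. Without single libraries the shift ran from −0.98 to −0.71. The heavy libraries with Rpl10a siRNA were lower than both control heavy libraries, and the light libraries changed less. Heavy libraries of the siRNAs had no overlap for 74.1% of all transcripts.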

How the results depend on the processing

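With a pseudocount of 5 the capture ratios of the low transcripts shrank, to 1.17 (uc008qlo.2, RPL10A), 1.19 (uc007ztn.2, RPL10A) and 0.86 (uc007ztn.2, RPS25). The differences from RPL22 became 1.31 and 1.12 for uc008qlo.2 and 1.12 and 0.79 for uc007ztn.2 (RPL10A and RPS25), and RPL10A minus RPS25 became 0.33 for uc007ztn.2. This follows from adding more to small values. Without single libraries, RPL10A minus RPL22 ran from 1.55 to 1.97 (uc009dsm.2), 1.52 to 2.18 (uc008qlo.2) and 1.30 to 1.98 (uc007ztn.2), RPS25 minus RPL22 from 1.18 to 1.89 (uc008qlo.2), and RPL10A minus RPS25 from 0.33 to 0.75, −0.047 to 0.67 and 0.22 to 0.91 in the same order (−0.047 without the first RPS25 capture and −0.019 without the second RPL10A capture library for uc008qlo.2). In the RNA-seq fits the control heavy minus light value of uc008qlo.2 ran from −1.87 to −0.99, that with Rpl10a siRNA from −1.80 to −0.84, its change in light pools from −1.37 to −0.41 and in heavy pools from −0.88 to −0.67, its polysome shift from −0.37 to 0.59 (−0.32 without the first control light library, −0.37 without the second Rpl10a light library) and the shift of uc009dsm.2 from −0.98 to −0.71. Without a variance trend the shift of uc009dsm.2 was −0.85 and no longer called.

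Replicate numbers were not taken to pair libraries, as the labels link them to no culture or day. Deviations of same-numbered RNA-seq libraries correlated across transcripts at 0.403 to 0.622, those of totals and captures at −0.00 (RPL10A), 0.01 (RPS25) and 0.18 (RPL22). With a replicate block the changes of uc008qlo.2 passed, at −0.77 in heavy pools (limma adjusted p = 0.00305) and −0.89 in light pools (limma adjusted p = 0.00423), and other calls on the 2 transcripts held. Of all 8084 transcripts the blocked fit called 5248 in heavy pools and 1912 in light pools, so such calls are common. The fit of the 4 heavy libraries also called the change of uc008qlo.2 in heavy pools (−0.77, limma adjusted p = 0.0400).

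Counts over all transcripts also changed. In light pools 495 were called, against 1912 with a replicate block, 260 without a trend and 749 in the fit of 4 libraries, and from 0 to 987 without single libraries: 0 without any 1 of the 4 control libraries or the second Rpl10a light library, 90 without the first Rpl10a light library, and 987 and 978 without the first and second Rpl10a heavy library. For the shift 520 were called, against 2520 with the block, 0 without a trend, and from 0 to 2070 without single libraries (2070 without the second Rpl10a heavy library and 0 without any other). Where limma called 0, between 1036 and 1933 transcripts (light pools) and between 1589 and 2443 (shift) had an unadjusted p below 0.05. In heavy pools 4000 were called, against 1500 to 4258 without single libraries; the low counts were 1500 (second control heavy left out) and 2561 (first Rpl10a heavy left out). The cause was not tested. A mean of at least 10 leaves out uc007ztn.2 in the fit of 12 libraries and those of the Rpl10a and Rpl22 lines, and uc008qlo.2 in those of the Rpl22 line and the RNA-seq libraries, so it gives no value there.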
